A study of Homo sapiens with 7 samples.

Results

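Of the 64492 H3K27me3 peaks on chromosomes 1 to 22 and X of T-47D cells, 7579 shared 1 bp or more with the list labelled H2A.Z, and these co-marked peaks are described here. They were chosen by that overlap alone, so their number, 11.8% of the H3K27me3 list, and their contact with the second list are the rule and not a result. The other 56913 H3K27me3 peaks, called the remaining peaks below, are set beside them. T-47D is a luminal breast cancer cell line that expresses the estrogen receptor. Histone marks were mapped by sequencing of immunoprecipitated chromatin (ChIP-seq) from cells grown in 10% serum to 70 to 80% confluence. Antibodies were to H2A.Z, H3K27ac, H3K27me3, H3K36me3, H3K4me2 and H3K9me3, and each of the 6 had 1 library. An input library was listed as well and was not analysed here. The deposited lists give the chromosome, start, end and name of each peak, without height or p-value, and the read depth is unknown. Coordinates are in the hg19 build, counted from 1.

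H3K27me3 is the histone mark laid down by Polycomb repressive complex 2, which keeps developmental genes silent and spreads over broad domains. H2A.Z is a histone variant that replaces H2A around transcription start sites and enhancers, and in embryonic stem cells it is also known at silent Polycomb targets that carry H3K4 methylation. H3K4me2 and H3K27ac mark promoters and enhancers, H3K36me3 marks the bodies of transcribed genes, and H3K9me3 marks heterochromatin.

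The labels were checked by the marks against each other. H3K27ac lay on H3K4me2 in 48.8% of its peaks (Wilson interval 48.3 to 49.4), whereas 159 of the 52188 peaks labelled H2A.Z, or 0.305% (0.261 to 0.356), touched H3K4me2. The list labelled H3K9me3 touched H3K4me2 in 35.3% of its peaks (34.7 to 36). Both lists thus went against what is known of the marks they are named for, and they are called by their labels throughout. Whether either list holds the mark in its name, the mark named on the other list or background was not tested, so co-marked here means overlap with that list and not the presence of H2A.Z. All intervals are 95% intervals that cover counting error alone, with peaks taken as independent, and they are too narrow where peaks cluster. With 1 library per mark there were no replicates, and no difference below carries a test.

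The contact between the lists was mostly a partial overlap of short peaks. The co-marked peaks formed 7899 overlapping pairs with 7716 labelled H2A.Z peaks, which were 14.8% (14.5 to 15.1) of that list. In 5364 pairs (67.9%) the peaks overlapped at their edges. The labelled H2A.Z peak lay inside the H3K27me3 peak in 1957 pairs (24.8%), the reverse held in 575 (7.28%), and in 3 pairs both peaks had the same ends. A pair shared a median of 453 bp, with the middle of the distribution from 266 to 501 bp (25th to 75th percentile), and the longest shared stretch was 3748 bp. The centres of the peaks in a pair lay a median of 301 bp apart. Among the 1934 pairs in which both peaks were 501 bp wide, the shared stretch had a median of 320 bp.

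Labelled H2A.Z covered a median of 49.1% of a co-marked peak (interval 47.8 to 50.2). The cover was complete in 578 co-marked peaks (7.63%) and below 10% in 497 (6.56%). In all, 3.36 Mb lay in both lists, which was 40.6% of the sequence in co-marked peaks, 6.94% of all H3K27me3 sequence and 9.92% of all labelled H2A.Z sequence. Most co-marked peaks, 7281 or 96.1%, held 1 labelled H2A.Z peak, and 298 held more. In the other direction, 180 labelled H2A.Z peaks reached 2 or more co-marked peaks. At the threshold of the rule, 308 co-marked peaks had a longest shared stretch of 50 bp or less, and 276 remaining peaks had a labelled H2A.Z peak 0 to 49 bp away. Both sets had a median width of 501 bp.

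Co-marked peaks were wider. Their median width was 671 bp (interval 660 to 687), against 501 bp for the remaining peaks, and their mean width was 1092 bp, against 711 bp for the remaining peaks. A width of exactly 501 bp, the commonest in the list, was found in 40.2% of co-marked and 60.1% of remaining peaks. Peaks over 2000 bp numbered 962 among the co-marked (12.7%) and 1504 among the remaining peaks (2.64%). Width enters the rule, since a wider peak meets another list more often by length, so the difference is a description.

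The share of H3K27me3 peaks that were co-marked rose through all 5 width classes. It was 8.17% at 501 bp or less, 11.8% (11.4 to 12.3) from 502 to 1000 bp and 20.7% (19.8 to 21.7) from 1001 to 2000 bp. From 2001 to 5000 bp it was 37.8% (35.9 to 39.8), and over 5000 bp it was 68.0% (66 of 97 peaks).

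**Figure D1:**
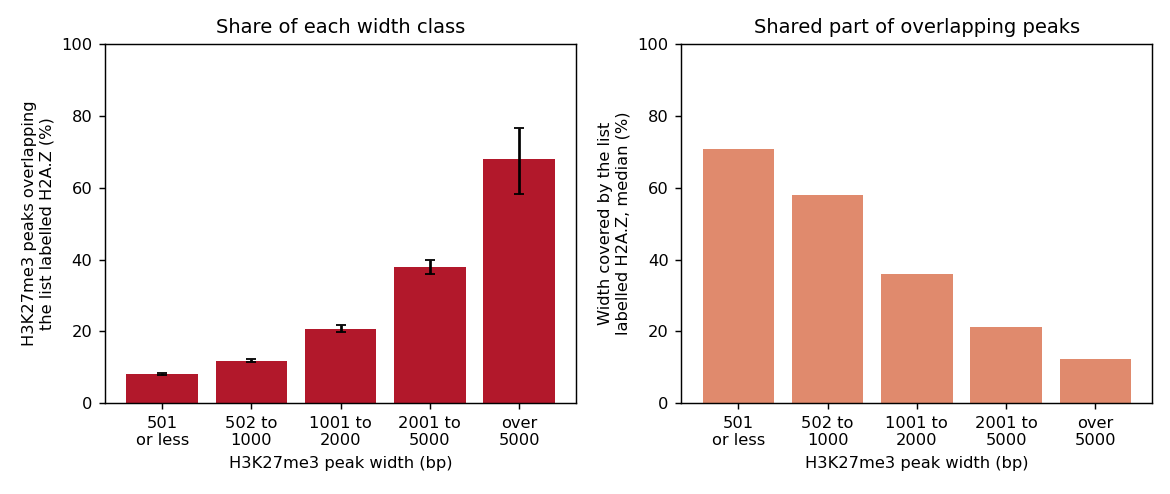
Left, the percent of H3K27me3 peaks in each of 5 width classes that overlap the list labelled H2A.Z, with 95% Wilson intervals; right, the median percent of the width of these overlapping peaks that the list covers. The share climbs with width, from 8.17% in the narrowest to 68.0% in the widest class, while the covered part falls to 12.3% in the widest class.

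The covered part ran the other way. Labelled H2A.Z covered a median of 70.7% of co-marked peaks of 501 bp or less, 58.1% from 502 to 1000 bp, 35.9% from 1001 to 2000 bp, 21.2% from 2001 to 5000 bp and 12.3% over 5000 bp. In bp the covered stretch changed less, with medians of 354, 459, 501, 501 and 718.5 bp in the same order. In the median, then, a co-marked peak over 2000 bp was covered over a small part of its width, although single peaks described below were covered over most of it. A second labelled H2A.Z peak was present in 17.3% of co-marked peaks from 2001 to 5000 bp and in 34.8% of those over 5000 bp.

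Inside the 962 wide co-marked peaks the labelled H2A.Z peaks had no fixed place. With the distance between the centre and the edge of the H3K27me3 peak cut into 4 equal parts, 243 of 1162 labelled H2A.Z centres lay in the innermost part, 255 in the next, 281 in the one after and 256 in the outermost, and 127 lay beyond the edge. From the other side, wider labelled H2A.Z peaks met H3K27me3 more often. The share on H3K27me3 was 13.7% (13.4 to 14.1) of labelled H2A.Z peaks of 501 bp or less, 19.9% (18.7 to 21.2) of those from 1001 to 2000 bp and 25.2% (22.2 to 28.6) of those from 2001 to 5000 bp.

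The widest co-marked peak, on chromosome 11 (45646459 to 45657451, 10993 bp), held 5 labelled H2A.Z peaks, more than any other co-marked peak, and they covered 45.8% of it. One of them, of 2735 bp (45650108 to 45652842), lay wholly inside it. The next, on chromosome 10 (6979884 to 6989717), held 3 that covered 19.1%. A second broad peak lay close by (6967350 to 6975584, 8235 bp) and also held 3, covering 18.3%. The peak on chromosome 9 (140885128 to 140894606) held 2 that covered 16.5%. A peak of 9049 bp on chromosome 20 (56791618 to 56800666) held 1 that covered 19.3%. A peak of 9037 bp on chromosome 5 (167061826 to 167070862) also held 1, which covered 7.68%.

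The peaks with most partners and the longest shared stretches lay on several chromosomes. A peak of 5226 bp on chromosome 11 (86357725 to 86362950) held 4 labelled H2A.Z peaks over 46.4% of its width, and one of 8050 bp (78328601 to 78336650) held 3 over 27.8%. On the same chromosome, the longest shared stretch of 3748 bp (75393418 to 75397165) joined an H3K27me3 peak of 6423 bp and a labelled H2A.Z peak of 4673 bp. The next longest, of 3437 bp, lay on chromosome 8. On chromosome 10 a stretch of 2511 bp (7680449 to 7682959) took up 99.3% of an H3K27me3 peak of 2528 bp. On chromosome 20 a whole labelled H2A.Z peak of 2486 bp (54909273 to 54911758) lay in an H3K27me3 peak of 6022 bp, 41.3% of which it covered.

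The co-marked peaks sat in wide neighbourhoods rich in labelled H2A.Z, with an added rise at the peak itself. Around all H3K27me3 peaks, the centres of labelled H2A.Z peaks reached 106.3 per Mb within 250 bp of the H3K27me3 centre and 72.4 per Mb from 250 to 500 bp. Beyond that the density was nearly level, at 60.3 per Mb from 500 bp to 1 kb, 61.6 from 2 to 5 kb, 57.7 from 10 to 20 kb and 51.0 from 50 to 100 kb. It was still 38.8 per Mb from 200 to 500 kb away, 2.06 times the mean of 18.8 per Mb over the analysed span of 2773 Mb. The rise at the centre was also present around H3K27me3 peaks of exactly 501 bp, where width cannot differ. There the density was 91.8 per Mb within 250 bp, 51.4 from 500 bp to 1 kb and 57.3 from 1 to 2 kb.

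Away from the overlap, the surroundings of co-marked peaks held more labelled H2A.Z than those of remaining peaks. A peak meets that list more often where the list is dense, so the rule favours such a difference and the densities are a description. From 10 to 20 kb away the density was 95 per Mb around co-marked and 52.7 around remaining peaks, and from 200 to 500 kb away it was 57.9 and 36.2 per Mb. Many remaining peaks were near misses. A labelled H2A.Z peak lay within 1 kb of 5768 of them (10.1%) and within 10 kb of 29176 (51.3%), and the median distance was 9.47 kb.

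**Figure D2:**
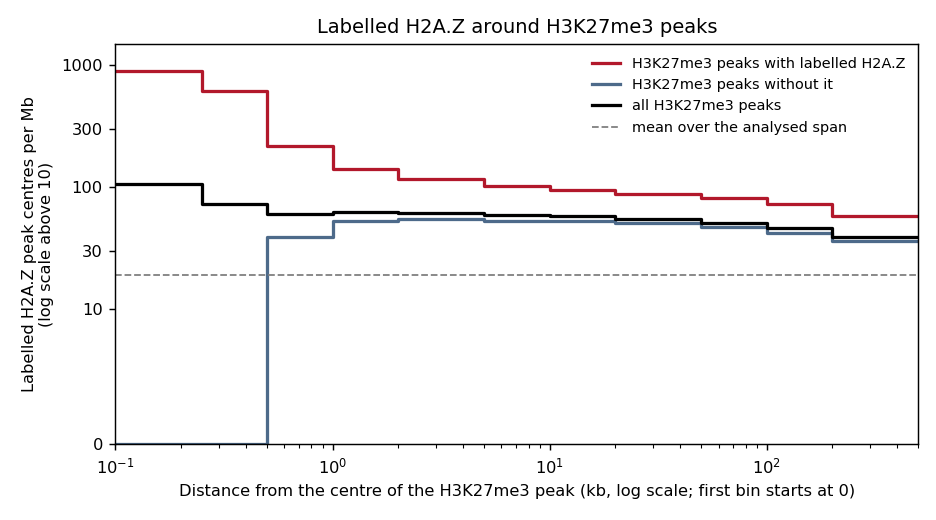
Density of labelled H2A.Z peak centres (per Mb) against the distance from the centre of H3K27me3 peaks (kb), around co-marked peaks, remaining peaks and all H3K27me3 peaks, with the mean over the analysed span dashed. The innermost bins of the upper and lower lines follow from the rule; the line for all peaks falls to a plateau near 60 per Mb by 1 kb and stays above the dashed mean of 18.8 out to 500 kb.

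The share of co-marked peaks rose with the local density of labelled H2A.Z, but less than in proportion. A rise follows from the rule, since a peak is co-marked only by contact with that list, so the shares are a description. In 1 Mb windows with 1 to 4 labelled H2A.Z peaks, 1.83% (1.56 to 2.14) of H3K27me3 peaks were co-marked. The share was 6.75% (6.36 to 7.15) in windows with 5 to 19, 12.9% (12.4 to 13.3) with 20 to 49, 17.8% (17.2 to 18.5) with 50 to 99 and 22.6% (21.7 to 23.6) with 100 or more. These last 121 windows held 17610 labelled H2A.Z and 7217 H3K27me3 peaks, and still 1633 of the H3K27me3 peaks were co-marked.

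Co-marked peaks were gathered in dense stretches of H3K27me3. A further H3K27me3 peak lay within 10 kb of 92.5% (91.8 to 93.0) of co-marked and 87.6% (87.3 to 87.9) of remaining peaks, and the median gap to it was 1550 bp (1500 to 1595) and 1865 bp (1844 to 1887). The difference was 4.86 percentage points. It was 2.43 points with remaining peaks weighted to the width classes of the co-marked, and 0.663 points with remaining peaks weighted to the 1 Mb windows of the co-marked. Most of it therefore lay between windows and not within them.

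Peaks joined across gaps of 10 kb or less formed 17024 clusters. The share co-marked rose with cluster size, from 7.49% (6.92 to 8.11) of the 7634 isolated peaks to 10.6% (10.1 to 11.1) in clusters of 5 to 9, 17% (16.3 to 17.7) in clusters of 20 to 49 and 18.0% (16.6 to 19.4) in the 46 clusters of 50 or more. Each of those 46 clusters held at least 1 co-marked peak, as did 92.9% of clusters of 20 to 49. A cluster with more peaks holds at least 1 co-marked peak more often by number alone, so nothing is read from these counts. Clusters with 2 or more co-marked peaks held 69.6% of all co-marked peaks. In clusters of 3 or more, 20.1% (19.1 to 21.1) of co-marked and 25.3% (24.9 to 25.7) of remaining peaks stood at an end, and the share of the remaining peaks was 21.2% once weighted to the cluster sizes of the co-marked.

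Co-marked peaks also lay next to each other. Where the nearest H3K27me3 peak was within 10 kb, it was itself co-marked for 24.2% (23.2 to 25.3) of co-marked peaks and for 10.7% (10.4 to 11) of remaining ones. The co-marked share was the higher on all 19 chromosomes with at least 20 co-marked peaks. In 334 of these 1698 cases both neighbours touched the same labelled H2A.Z peak, and without them the share was 20.4%. Neighbours share their surroundings, and the rule favours contact where labelled H2A.Z is dense. In windows with 50 to 99 labelled H2A.Z peaks, 17.8% of all H3K27me3 peaks were co-marked, and 22.6% in windows with 100 or more. The neighbour shares were not weighted to windows or width classes. Whether the difference holds within windows was not tested, and the shares are a description. Runs of adjacent co-marked peaks were short. There were 5088 single co-marked peaks, 809 runs of 2, 205 runs of 3 and 57 of 4 or more, and the longest held 7.

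The longest runs lay on chromosome 7 (67415076 to 67437357, 7 co-marked peaks and 5 labelled H2A.Z peaks in 22.3 kb) and on chromosome 12 (108644459 to 108658906, 7 and 7 in 14.4 kb). There were also runs of 6. One lay on chromosome 10 (6523363 to 6551119), within 0.103 kb of an H3K4me2 or H3K27ac peak. Another on chromosome 7 (3776183 to 3800607) was 117.3 kb from the nearest such peak and 897.5 kb from H3K36me3. The third lay on chromosome 11 (121958685 to 121983066). Labelled H2A.Z covered from 19.1% of the H3K27me3 sequence in the run on chromosome 10 to 55.7% in the run on chromosome 11.

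Over larger distances the co-marked peaks were spread unevenly. Of 2211 windows of 1 Mb with H3K27me3, 1093 held a co-marked peak, and the 164 windows with most of them, ranked by that number, held 50.05%. The same 164 windows held 28.9% of all H3K27me3 peaks and 26.1% of the remaining peaks. Lower shares of these follow from ranking and cutting the windows by co-marked peaks, and no ranking by the remaining peaks was made. The shares therefore do not compare how unevenly the groups were spread. The 4 windows with most co-marked peaks were all on chromosome 7. They spanned 4000001 to 5000000 (69 of 166 H3K27me3 peaks, 41.6%), 67000001 to 68000000 (65 of 184), 3000001 to 4000000 (64 of 238) and 71000001 to 72000000 (60 of 195). The next, on chromosome 12 (115000001 to 116000000), held 46 of 157.

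In the chromosome 7 window with 69 co-marked peaks, nearly all of these lay before the first H3K27ac or H3K36me3 peak. In the first 682 kb of the window, up to that peak, there were 68 co-marked and 88 remaining H3K27me3 peaks (1 of which crosses its start), 108 of its 114 labelled H2A.Z peaks and 12 of its 30 H3K4me2 peaks. Beyond that point, in a shorter stretch, there were 1 co-marked peak, 10 remaining peaks and 18 H3K4me2 peaks. All 13 H3K27ac and all 10 H3K36me3 peaks lay there by definition, since the first of them set the point. The remaining peaks were thus divided in the same way as the co-marked.

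**Figure D3:**
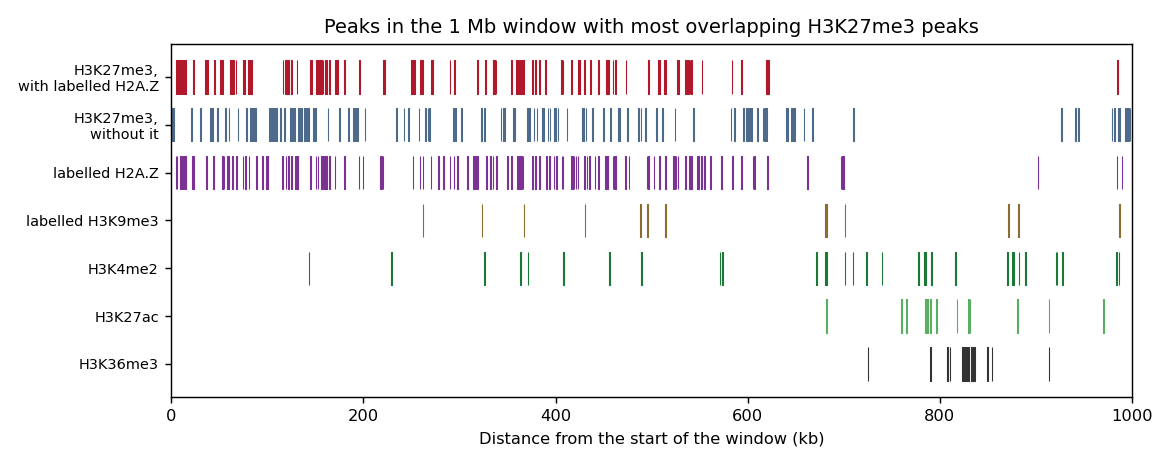
Peaks of the 6 lists in the 1 Mb window of chromosome 7 (4000001 to 5000000) with most co-marked peaks, drawn to scale against the distance from its start (kb), with H3K27me3 peaks split into those with and without labelled H2A.Z. Of the 69 co-marked peaks, 68 lie in the first 682 kb, before the first H3K27ac or H3K36me3 peak.

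The next question was how far co-marked peaks lie from active chromatin. The nearest H3K27ac or H3K4me2 peak was a median of 30.9 kb (29.9 to 31.9) from co-marked and 26.7 kb (26.4 to 27.1) from remaining peaks. H3K4me2 set this distance, with medians of 31.7 and 27.5 kb. H3K27ac was farther from both, with medians of 158.5 kb (154.6 to 162.5) from co-marked and 132.4 kb (131.0 to 133.7) from remaining peaks. Within 10 kb there was an H3K27ac or H3K4me2 peak for 18.9% of co-marked and 23.9% of remaining peaks, but within 100 kb the shares were 88.8% and 89.0%. For the nearest active peak of any kind, the difference thus lay at close range, while H3K27ac alone was within 100 kb of 32.1% of co-marked and 39.3% of remaining peaks.

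The direction held under the 3 weightings, in all 5 width classes and on most chromosomes. It was not resolved where both lists were cut to their wider peaks. The median distance from remaining peaks to the nearest active peak was 26.4 kb weighted to the width classes of the co-marked peaks, 24.6 kb weighted to their chromosomes and 25.4 kb weighted to their 1 Mb windows, each below the 30.9 kb of co-marked peaks. Within width classes the medians were 33.4 kb for co-marked and 26.7 kb for remaining peaks of 501 bp or less, 29.3 and 27.1 kb in the next class, 30.3 and 26.5 kb from 1001 to 2000 bp, 28.3 and 24.3 kb from 2001 to 5000 bp, and 27.4 and 22.5 kb over 5000 bp. Co-marked peaks were the farther on 16 of the 19 chromosomes with at least 20 of them. The ratio of co-marked to remaining medians ranged from 0.730 to 1.52 over these chromosomes. Among peaks above the median width of each list, the difference was 1.70 kb with an interval that includes 0 (-0.325 to 3.49), against 4.12 kb (3.14 to 5.21) among all peaks. That setting also drops labelled H2A.Z peaks of 501 bp or less. Wide H3K27me3 peaks that touched only such a peak were counted there as remaining, which left 1867 co-marked peaks.

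H3K36me3 lay farther off. Its nearest peak was a median of 217.9 kb (211.5 to 223.7) from co-marked and 184.1 kb (182.3 to 186.1) from remaining peaks, and co-marked peaks were the farther on 15 of 19 chromosomes. Within 100 kb, 23.2% of co-marked and 28.9% of remaining peaks had an H3K36me3 peak. Weighted to the 1 Mb windows of the co-marked, the remaining peaks had a median of 204.1 kb, so the difference of 33.7 kb became 13.8 kb inside windows. By width class, co-marked peaks were the farther in the first 4 classes, with medians of 236.3 kb for co-marked and 186.8 kb for remaining peaks in the narrowest. Over 5000 bp the order was reversed, with 166 kb for 66 co-marked and 203.4 kb for 31 remaining peaks.

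In median distance, co-marked peaks stood between the remaining H3K27me3 peaks and the 44472 labelled H2A.Z peaks away from H3K27me3. Those labelled H2A.Z peaks had medians of 55.7 kb to H3K27ac or H3K4me2 and 399.5 kb to H3K36me3. Direct contact with H3K36me3 did not follow that order, since 270 of them (0.607%) touched it, against 0.0132% of co-marked peaks. Toward the list labelled H3K9me3 the order turned round. Its nearest peak was a median of 37.6 kb (36.2 to 39.4) from co-marked peaks, 60.6 kb (59.8 to 61.5) from remaining H3K27me3 peaks and 21.6 kb (21.2 to 22) from labelled H2A.Z peaks away from H3K27me3. Weighted to the 1 Mb windows of the co-marked, remaining peaks had a median of 39.6 kb, against the 37.6 kb of the co-marked.

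Densities around the peaks gave the range of these differences. Within 250 bp of the H3K27me3 centre, H3K4me2 centres numbered 5.54 per Mb around co-marked and 11.2 per Mb around remaining peaks. From 20 to 50 kb away there were 14.4 and 16.9. At both of these ranges each group lay below the mean H3K4me2 density of 23.3 per Mb over the analysed span. From 200 to 500 kb away there were 27.1 and 27.3, so the difference between the groups was nearly gone at that range. H3K27ac centres were absent within 2 kb of co-marked centres. Around remaining peaks they were nearly absent too, with 0.246 per Mb within 250 bp and 0.518 from 1 to 2 kb. The mean H3K27ac density over the analysed span was 11.3 per Mb. From 50 to 100 kb away H3K27ac centres numbered 4.31 per Mb around co-marked and 6.03 around remaining peaks. Centres of the list labelled H3K9me3 numbered 24.3 per Mb around co-marked and 9.98 around remaining peaks within 250 bp, and 13.8 and 10.1 from 200 to 500 kb away.

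**Figure D4:**
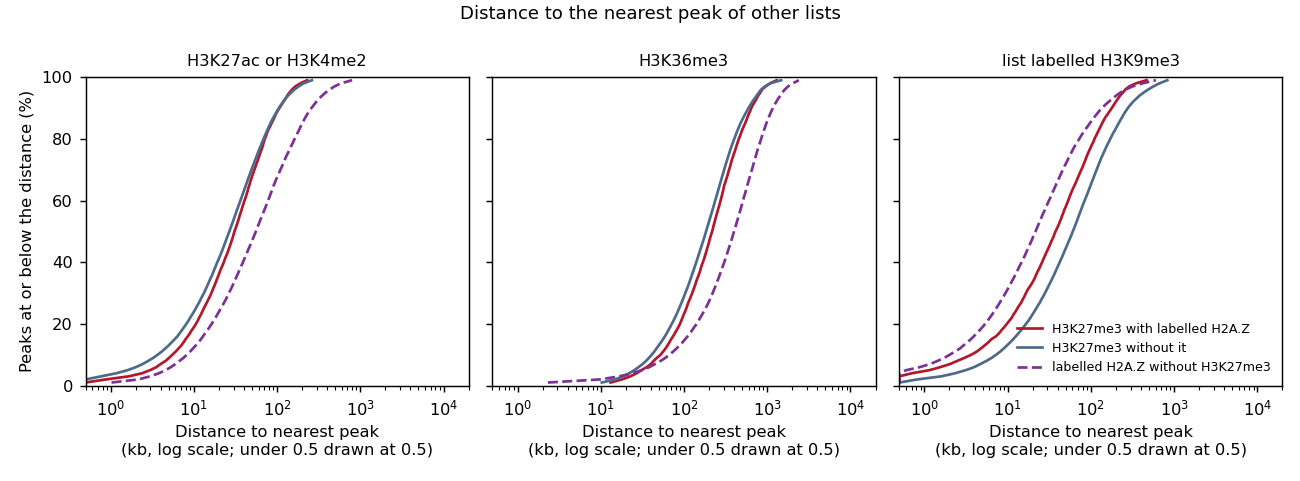
Cumulative percent of peaks against the distance to the nearest peak of another list (kb, log scale), for co-marked H3K27me3 peaks, remaining H3K27me3 peaks and labelled H2A.Z peaks away from H3K27me3. Medians of the co-marked line are 30.9 kb to active marks, 217.9 kb to H3K36me3 and 37.6 kb to the list labelled H3K9me3.

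Direct contact of co-marked peaks with active marks was rare, as it was for H3K27me3 as a whole. H3K4me2 touched 65 co-marked peaks, or 0.858% (0.673 to 1.09), and 709 remaining peaks, or 1.25% (1.16 to 1.34), where 1.2% of all H3K27me3 peaks touched it. The difference was -0.388 percentage points (-0.595 to -0.138). Its interval reached past 0 under 3 alternatives, with -0.276 points (-0.515 to 0.0237) where 50% of the shorter peak had to be shared, -0.484 (-0.881 to 0.1) among peaks above the median width and -0.258 (-0.511 to 0.0399) with peaks merged within 1 kb. In the first and second of these, some peaks that are co-marked by the main rule were counted as remaining. With remaining peaks weighted to the co-marked width classes, their share was 1.48%. In 35 stretches all 3 lists met on the same bases.

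The co-marked peak with the longest H3K4me2 contact, 819 bp, lay in the chromosome 7 window described above (4361850 to 4364674), and 2 labelled H2A.Z peaks covered 77.8% of it. Next came a peak on chromosome 5 (57841805 to 57847033) with 809 bp of H3K4me2 contact and one on chromosome 11 (122853581 to 122858695) with 806 bp. In these, labelled H2A.Z covered 9.58% and 9.79% of the width. Peaks on chromosome 20 (58234226 to 58235906) and chromosome 21 (10884592 to 10886857) had 773 bp each.

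No co-marked peak touched H3K27ac. For 0 of 7579 peaks the Wilson upper bound is 0.0507%, and 11 of 56913 remaining peaks (0.0193%) did, where 0.0171% of all H3K27me3 peaks touched H3K27ac, so the shares cannot be told apart at these counts. H3K36me3 touched 1 co-marked and 3 remaining peaks, where 0.0062% of all H3K27me3 peaks touched it. The co-marked one lay on chromosome 14 (49594875 to 49597608, 2734 bp) and held 2 labelled H2A.Z peaks, with the nearest H3K27ac or H3K4me2 peak 58.6 kb away.

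The list labelled H3K9me3 touched co-marked peaks more often. It overlapped 201 of them, or 2.65% (2.31 to 3.04), and 526 remaining peaks, or 0.924% (0.849 to 1.01), where 1.13% of all H3K27me3 peaks overlapped it. The co-marked share was 2.87 times the other. It remained the higher when remaining peaks were weighted to the width classes (1.09%), the chromosomes (1.09%) or the 1 Mb windows (1.49%) of the co-marked. All 3 lists met on the same bases in 152 stretches. Labelled H2A.Z peaks away from H3K27me3 overlapped the list labelled H3K9me3 in 1334 cases, or 3.0%.

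By chromosome, the share of H3K27me3 peaks that were co-marked ranged from 0.784% on chromosome 18 (4 of 510; interval 0.305 to 2.0) to 18.0% on chromosome 14 (740 of 4121; 16.8 to 19.2). Chromosomes 7 (16.6%), 12 (16.0%), 11 (15.3%), 21 (14.9%) and 20 (13.8%) followed chromosome 14 in that order, and the intervals of neighbours in it overlapped. Chromosomes X (0.839%), 2 (1.45%), 13 (1.57%), 22 (1.99%) and 19 (2.32%) stood next to chromosome 18 at the low end, again with overlapping intervals between neighbours. The 15 chromosomes with 10 or more labelled H2A.Z peaks per Mb held 7285 of the 7579 co-marked peaks, and 13.1% (12.8 to 13.4) of their H3K27me3 peaks were co-marked. On the other 8 chromosomes, which were 2, 4, 6, 13, 18, 19, 22 and X, the share was 3.29% (2.94 to 3.68).

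Those 8 were the chromosomes sparse in labelled H2A.Z, by which they were set apart, and H3K27me3 was also lower on them in the median. Chromosome 22, the highest of the 8 with 23.5 H3K27me3 peaks per Mb, lay inside the range of the dense 15 but below their median. Median densities on the 8 were 2.49 labelled H2A.Z and 8.69 H3K27me3 peaks per Mb, against 24.2 and 30.7 on the dense 15. H3K4me2 and H3K36me3 differed less, with medians of 15.5 and 13.3 peaks per Mb on the 8 and 27.2 and 20.3 on the 15. Among the 8, chromosomes 19 (41.4 and 48.8) and 22 (33.5 and 34.3) went the other way, above both medians of the 15. The number of copies of each chromosome in the line was not given, and its part in the densities was not tested.

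Set against the product of the densities of the lists, overlapping pairs were above the product on each of the 23 chromosomes. The product gives the pairs that would overlap if each list were spread evenly and independently over a chromosome with its own peak numbers and mean widths. Summed over chromosomes it gave 2353 pairs, and 7899 were observed, a ratio of 3.36 (exact Poisson interval of the count 3.28 to 3.43). The ratio was 2.13 (1.94 to 2.34) on chromosome 20, 2.40 (2.20 to 2.61) on chromosome 8, 2.41 (2.25 to 2.57) on chromosome 11 and 2.77 (2.56 to 3.0) on chromosome 5. These were 4 of the 6 chromosomes with the highest labelled H2A.Z densities, with 46.7, 36.8, 46.3 and 32.2 peaks per Mb in the same order.

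Ratios above 5 were found on chromosomes of middle and low density. Examples were 5.17 (4.79 to 5.57) on chromosome 1, 5.96 (5.04 to 7.0) on chromosome 21, 8.19 (6.98 to 9.55) on chromosome 6 and 14.9 (11.1 to 19.6) on chromosome 4, which had 51 pairs where the product gave 3.42. Chromosome 14, with the highest share of co-marked peaks, had 783 pairs where the product gave 250.6, a ratio of 3.12 (2.91 to 3.35). The sparse chromosome 19 had a ratio of 2.26 (1.45 to 3.36). On chromosomes 18 and X, with 4 pairs each, the intervals reached below 1.

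**Figure D5:**
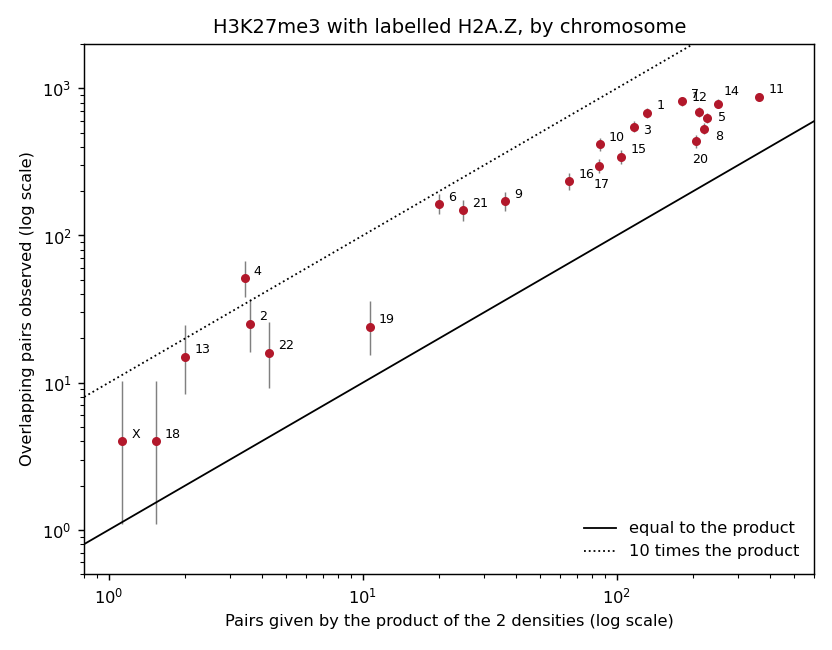
Overlapping pairs of H3K27me3 and labelled H2A.Z peaks observed on each of 23 chromosomes against the pairs given by the product of the densities (both log scales), with exact 95% Poisson intervals. Every point lies above the line of equality, from 2.13 times the product on chromosome 20 to 14.9 times on chromosome 4.

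The ratio depended on the scale at which densities were multiplied. It was 4.63 for the whole span, 3.36 by chromosome, 2.50 in 5 Mb windows, 2.04 in 1 Mb windows and 1.5 in 0.1 Mb windows. Much of the excess over the product thus lay in both lists being dense on the same chromosomes and in the same stretches, and 1.5-fold (1.47 to 1.53) was left within windows of 0.1 Mb. Nearness to a chromosome end made little difference, with 11.5% (10.9 to 12.2) of H3K27me3 peaks co-marked within 5 Mb of the outermost peaks of a chromosome and 11.8% (11.5 to 12.1) farther in.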

How the data were processed

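The authors deposited 1 peak list per library, with peak starts and ends in bp as the values used here. Bowtie2 2.1.0, HOMER 4.2 and the builds hg19 and GRCh37 are named in the submitters' processing notes, without a role. Settings for peak calling, use of the input and depth were not given in the sources used here, so precision beyond counting error is unknown. Coordinates are hg19 and 1-based. Gene models of that build were not used here, so regions carry no gene names, and the planned gene list was not run. Peaks off chromosomes 1 to 22 and X were set apart, and 58 peak-free spans of 1 Mb or more were left out of the densities. Distances were edge to edge. Weighted values of remaining peaks give each class the share it has among co-marked peaks. The product for a chromosome or window was the product of the peak numbers times the sum of the mean widths less 1 bp, over the analysed length. Intervals were Wilson (shares), Newcombe (differences of shares), exact Poisson (pairs) and order-statistic (medians). The functions that find overlaps between peaks were tested on simulated data. Named regions were the 5 widest co-marked peaks, the 5 longest shared stretches, the 5 with most labelled H2A.Z peaks, the 5 longest runs, the 5 richest 1 Mb windows, those on H3K27ac or H3K36me3, and the 5 with the longest H3K4me2 contact, the last chosen after values were seen. The co-marked peaks and all comparisons were chosen with earlier results of these data known. Alternatives were a stricter overlap, widths, merged peaks, neighbour gaps, window sizes, weightings and chromosomes left out. Python 3.11.15, numpy 2.4.6, pandas 2.3.3, scipy 1.17.1 and matplotlib 3.10.9 were used.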

Additional observations from a re-analysis of the deposited data

Results flagged for a closer look

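Outside chromosomes 1 to 22 and X, in sequence that the comparisons above do not use, 108 of 219 H3K27me3 peaks overlapped 1 or more of the 324 labelled H2A.Z peaks there. This share of 49.3% (Wilson interval 42.8 to 55.9) is listed because these peaks enter no comparison and the overlap is not 0, and nothing further is read from it. The highest share on the 23 chromosomes was 18.0%, on chromosome 14.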

How the results depend on the processing

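Of 82 values recomputed under alternative settings, 50 stayed within the intervals of the values reported (or within 1.5 times the count), 32 moved and 0 turned round. Where 50% of the shorter peak had to be shared, the covered part was 62.3%, the width difference 254 bp, the difference in co-marked neighbours 9.57 points and the ratio to the product 2.51. Peaks with a shorter contact counted there as remaining, as did those touching only narrow labelled H2A.Z peaks in the setting that follows. Among peaks above the median width of each list, there were 1867 co-marked peaks, and the width difference was 304 bp, the difference in peaks with a neighbour 7.47 points, the differences in distance 1.70 kb (active marks) and 26.8 kb (H3K36me3), and the ratio to the product 3.8. Without the widest 1% these were 50.8% covered, 151 bp in width and 12.3 points in co-marked neighbours. Without chromosomes 11 and 20 the neighbour difference was 5.54 points and the ratio 3.69. Merging within 1 kb gave 40.0% covered, 437 bp in width, 6.68 points with a neighbour and 11.7 points in co-marked neighbours. Neighbour gaps of 5 and 20 kb gave 6.84 and 3.18 points. Weighting by width class gave 2.43 points with a neighbour and -0.620 points in H3K4me2 contact. Weighting by chromosome gave 3.31 points with a neighbour and 6.26 kb to active marks. Weighting by 1 Mb window, added after seeing the data, gave 0.663 points, 5.48 kb and 13.8 kb to H3K36me3. The ratio to the product was 2.50, 2.04 and 1.5 in windows of 5, 1 and 0.1 Mb, the last added after seeing the data, and 3.48 with peak-free spans kept. Causes were not tested. The lists hold no peak heights, so weak peaks could be set apart by width alone, and a peak missing from a list may hold signal under the authors' threshold. No paired analysis was possible because each mark has 1 library and no result comes from a test over samples.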
